A study of Cavia porcellus with 12 samples.

Results

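The miR-133 family was followed through small RNA sequencing of guinea pig ventricular cardiomyocytes. Its 3 members are the precursors hsa-mir-133a-1, hsa-mir-133a-2 and hsa-mir-133b, and every entry whose name ended in 1 of these precursors was taken. An entry is 1 read sequence listed under 1 human precursor with its start position, so a miRNA is spread over many entries that differ in start, length or a base (isomiRs). The family held 63 of the 1610 entries for DOX and DMSO at 1 h, 46 of 1335 for DOX and DMSO at 22 h, and 106 of 4979 for the 2 DOX times (the DOX comparison). Over all 3 comparisons these were 112 different entries of 5095. Ventricular cells from adult female Hartley guinea pigs, isolated by Langendorff perfusion and enzymatic digestion, were kept at room temperature with 10 µM doxorubicin (DOX, an anthracycline used against cancer) or with its vehicle DMSO. The labels give 4 groups of 3 libraries: DMSO 1 h, DOX 1 h, DMSO 22 h and DOX 22 h. The animals' age, and whether the 3 replicates of a group came from different animals, were not given in the sources used here.

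Members of the miR-133 family are muscle miRNAs. The mir-133a precursors are transcribed together with mir-1 precursors, and mir-133b together with mir-206, which is typical of skeletal muscle. A precursor hairpin is cut into a 5p and a 3p strand, and for miR-133 the 3p strand is the one that mainly enters the silencing complex. The bases near the 5′ end of that strand (the seed) select target mRNAs, so a shift of the start by a base changes the seed. In the heart, miR-133a is known for restraining hypertrophic growth, cardiomyocyte division and smooth muscle genes, with serum response factor and cyclin D2 among its targets.

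The sequences on which the results turn are shown as listed, 5′ to 3′, with capitals for bases that are not in the leading entry of the same arm. They are shown to make the start shift, the missing ends and the changed bases visible. The seed was not marked, because no reference of mature sequences was used here and the first listed base is not known to be the 5′ end of the molecule.
Leading 3p entry of hsa-mir-133a-1 and hsa-mir-133a-2: ggtccccttcaaccagctgt
Second 3p entry of both, 1 base earlier: Tggtccccttcaaccagctgt
Leading entry of hsa-mir-133b: Tggtccccttcaaccagct
Second entry of hsa-mir-133b: ggtccccttcaaccagct
Entry of hsa-mir-133b with its own last base: ggtccccttcaaccagctA
Short 3p form listed under all 3 precursors, 16 bases: Tggtccccttcaacca
Short 3p form listed under all 3 precursors, 14 bases: ggtccccttcaacc
3p form with 1 changed base, listed by the study for 22 h: ggtccccttcaaTcagctgtT
3p form with 1 changed base and the highest mean: ggtccccttcaaccagctgAT
Leading 5p entry of hsa-mir-133a-1 and hsa-mir-133a-2: ctggtaaaatggaaccaaat
5p form 1 base longer: ctggtaaaatggaaccaaatC
5p form starting 1 base later: tggtaaaatggaaccaaatC

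The values are the authors' means of normalized counts over both groups of a comparison. They have no spread between replicates, and no read totals per library came with them. Over all entries the means summed to 5874566 (1 h), 4776593 (22 h) and 6005178 (DOX comparison). The labelled cell type was checked against markers. Striated muscle precursors (mir-1-1, mir-1-2, mir-208a, mir-208b, mir-499a) took 27.9% to 30.4% of the summed means, and mir-206 took 0.00517% to 0.00676%. Precursors of other cell types were also present: mir-143 and mir-145 of smooth muscle took 19.4% to 20.96%, and mir-126 of endothelium took 3.24% to 4.41%. The fibroblast list of 3 took 0.197% to 0.266%, the red blood cell marker mir-451a 0.00207% to 0.00680% and the white blood cell list of 2 took 0.00600% to 0.00765%, and none of these markers was at 0. The part of other cells in the values below was not tested, and fewer cells of a type cannot be told apart from less RNA per cell.

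Of these summed means the family took 5.60% in the 1 h comparison, 6.23% in the 22 h comparison and 6.66% in the DOX comparison. These tables were normalized separately, so the 3 shares are set side by side without a comparison. hsa-mir-133a-2 ranked 7th of 243 precursors at 1 h, 6th of 224 at 22 h and 5th of 287 in the DOX comparison, with hsa-mir-133a-1 next below it each time. hsa-mir-133b stood far lower, at rank 111, 107 and 107. Its summed means were 822 at 1 h, 728 at 22 h and 1012 in the DOX comparison, or 0.25%, 0.244% and 0.253% of the family. Separate entries named hsa-miR-133a-5p, hsa-miR-133a-3p and hsa-miR-133b, which carry no sequence and are no members, were listed at 0 in the DOX comparison.

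The 3p strand held nearly all of the mir-133a signal. Under hsa-mir-133a-1 the 3p entries summed to 161031 at 1 h, 145756 at 22 h and 196165 in the DOX comparison, against 2921, 2642 and 3021 for 5p. Under hsa-mir-133a-2 the 3p entries summed to 161124, 145921 and 196551, against 2987, 2545 and 2985 for 5p. The 3p share was therefore 98.2% at 1 h and 98.5% in the DOX comparison for both precursors, and at 22 h it was 98.2% for hsa-mir-133a-1 and 98.3% for hsa-mir-133a-2. Over both precursors, 3p exceeded 5p 54.5 times at 1 h, 56.2 times at 22 h and 65.4 times in the DOX comparison. Among precursors with signal in both arms, the stronger arm exceeded the weaker by a median of 29.6 times at 1 h (103 precursors), 24.6 times at 22 h (95 precursors) and 26.3 times in the DOX comparison (140 precursors). No 5p entry of hsa-mir-133b was among the entries analysed here.

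The 3p arm of mir-133a was listed mainly at 2 starts. The start of the leading entry (base 55 of hsa-mir-133a-1, base 61 of hsa-mir-133a-2) held 67.6% of the arm at 1 h, 67.9% at 22 h and 69.1% in the DOX comparison, summed over both precursors. The start 1 base earlier held 32.4%, 32.1% and 30.9%. Almost all of this came from 1 entry at each start. For hsa-mir-133a-1, the leading entry of 20 bases had means of 108599, 98838 and 135221, and the entry of 21 bases that starts 1 base earlier had 52190, 46791 and 60582. Together the 4 such entries of both precursors made up 99.8% of the 3p arm in the DOX comparison. They end at the same base, so the 2 leading forms differ only at their first base.

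For hsa-mir-133b the order of the starts was the other way round. The earlier start (base 67) held 77.5% of its signal at 1 h, 77.1% at 22 h and 72.7% in the DOX comparison, and base 68 held 22.5%, 22.9% and 27.1%. The leading hsa-mir-133b entry, of 19 bases, had means of 441, 392 and 501, and the second, of 18 bases, had 95.4, 99.7 and 122. Without the entries that differ from the mir-133a sequence by a base, base 68 held 18.5%, 19.6% and 21.1%. These forms are shorter than the leading mir-133a forms, and short forms under hsa-mir-133a-1 took either order. In the DOX comparison their means at the earlier and later start were 17.6 and 30.7 at 14 bases, and 49.0 and 4.28 at 15. At 16 bases only the earlier start was listed (26.1), and at 13 only the later (16.2). Whether the order follows length or precursor was not tested.

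**Figure D1:**
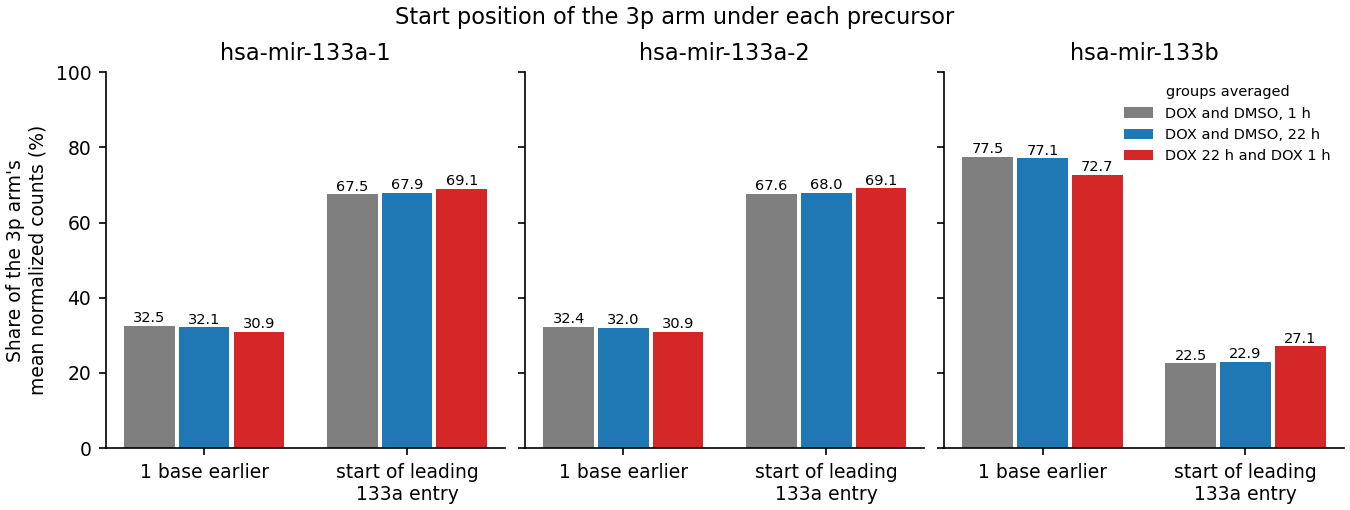
Share of the mean normalized counts of the 3p arm (vertical axis, percent) by start position (horizontal axis) under each precursor, 1 bar per comparison whose groups were averaged. The start of the leading mir-133a entry holds 67.5% to 69.1% under the mir-133a precursors and 22.5% to 27.1% under hsa-mir-133b.

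The hsa-mir-133b entries were mostly sequences that also fit mir-133a. Of its 21 entries in the DOX comparison, 11 were stretches of the leading mir-133a forms, and they held 90.0% of its signal. At 1 h these were 10 of 13 entries with 95.1%, and at 22 h 9 of 11 with 95.9%. Entries with bases that the leading mir-133a forms lack summed to 40.4 at 1 h, 29.9 at 22 h and 101 in the DOX comparison. These were 0.0123%, 0.01004% and 0.0252% of the family. Entries of 17, 18 or 19 bases without a base difference were listed under hsa-mir-133b and not under the mir-133a precursors, whose own such entries had 13 to 16 bases or 20 or 21. The values under hsa-mir-133b therefore cannot be told apart from shortened mir-133a reads.

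The mir-133a precursors could not be told apart either. Sequences listed under both held 99.9% of the mir-133a signal in each comparison. Where the means of a sequence summed to at least 100, hsa-mir-133a-1 took between 47.8% and 53.8% of its 5p signal in the DOX comparison and 50.0% of each leading 3p form. For 12 sequences listed under both, the reads of 3 single libraries could be recovered, as described next. This gave 36 splits, and in 36 of 36 the 95% Clopper-Pearson interval of the hsa-mir-133a-1 share covered 50%. The leading 5p entry, for example, had 2000 reads under hsa-mir-133a-1 and 1951 under hsa-mir-133a-2 in the DMSO 22 h library, a share of 50.6% (interval 49.0% to 52.2%).

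**Figure D2:**
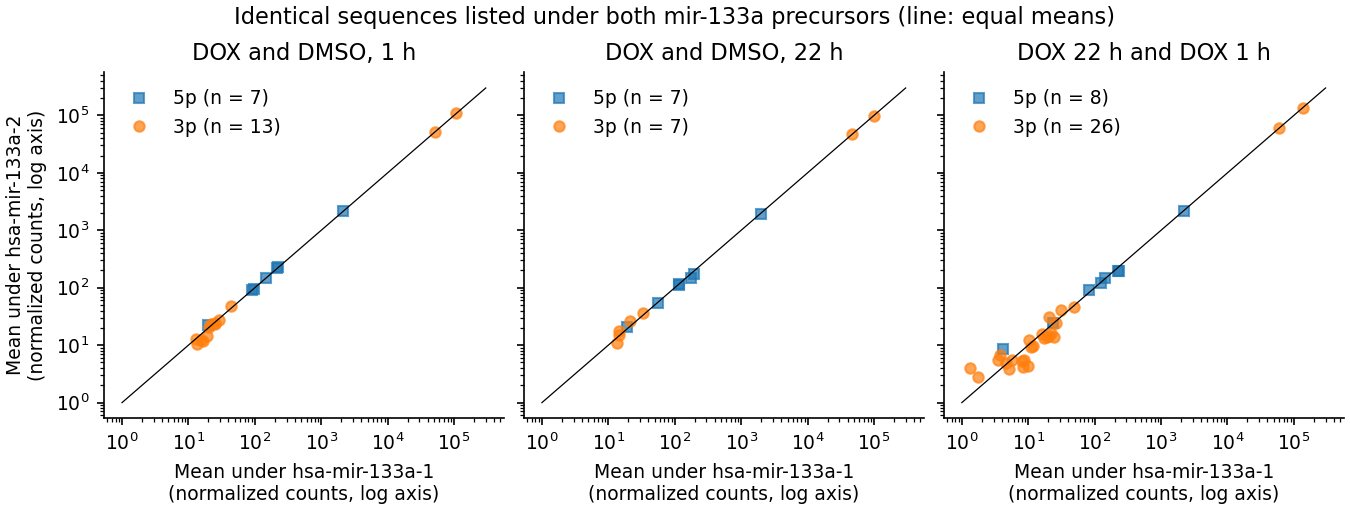
Mean normalized counts of the same sequence under hsa-mir-133a-1 (horizontal log axis) and hsa-mir-133a-2 (vertical log axis), 1 point per sequence and 1 panel per comparison, with a line of equal means. The leading 3p forms lie on the line, and pairs with low means scatter around it.

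Reads of single libraries were recovered for the comparisons that include DOX 22 h. Within 0.01 of a whole number, each of the 1323 means at 22 h and the 2369 above 0 in the DOX comparison could be written as whole reads of 2 libraries. The 1 h means showed no such step. Each of these comparisons therefore rests on 1 library a side, and the names of predicted miRNAs in them carry replicate 1. DOX 22 h is the group they share, which fixed the library that entered both, and with this assignment 1323 of 1323 entries could be solved, against 395 for the next best assignment. The direction of each ratio rests on this assignment, and on each table holding the groups that it is named for. The entries with 1 possible solution at 22 h held 440362 reads in DMSO 22 h and 474736 in DOX 22 h, and those of the DOX comparison held 626032 in DOX 1 h. Family entries with 1 possible solution numbered 42 of 46 at 22 h and 73 of 106 in the DOX comparison. The 4 leading 3p entries had several solutions, so the reads of the main miR-133a-3p forms are not given per library. Each ratio is log2 of reads plus 0.5, scaled by the size factors implied by the means. Its 95% Clopper-Pearson interval covers counting error only, and there is no replicate check. Both ratios contain the same DOX 22 h library.

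In reads of replicate 1, hsa-mir-133b was higher in DOX 22 h than in DMSO 22 h. Its 11 entries listed at 22 h had 538 reads in DMSO 22 h, 938 in DOX 22 h and 890 in DOX 1 h. DOX 22 h was highest, and the log2 ratio was 0.63 (interval 0.48 to 0.79) over DMSO 22 h and 0.44 (0.30 to 0.57) over DOX 1 h. The ratio over DMSO 22 h was above 0 for 10 of the 11 entries, most of which are stretches of the mir-133a forms. The leading entry had 287, 508 and 484 reads in DMSO 22 h, DOX 22 h and DOX 1 h, a log2 ratio of 0.65 (0.44 to 0.87) over DMSO 22 h and 0.43 (0.25 to 0.61) over DOX 1 h. The second entry, which starts 1 base later, had 59, 145 and 90 reads, with log2 ratios of 1.12 (0.68 to 1.59) and 1.05 (0.66 to 1.45). After scaling, its DOX 22 h value was more than 2-fold above both others. The entries with bases that the leading mir-133a forms lack were few. The one with its own last base had 14, 14 and 19 reads, with log2 ratios of -0.17 (-1.35 to 1.01) and -0.06 (-1.19 to 0.99). The T20A form ending in A had 13, 19 and 16, with ratios of 0.36 (-0.72 to 1.52) and 0.60 (-0.43 to 1.67). All 4 of these intervals hold 0. The T20A change is also listed under hsa-mir-133a-2, so it does not mark hsa-mir-133b.

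The later start also took more of hsa-mir-133b in that library. It held 24.6% of the reads in DOX 22 h (interval 21.9% to 27.5%), 20.3% in DMSO 22 h (16.9% to 23.9%) and 18.99% in DOX 1 h (16.5% to 21.7%). The intervals of DOX 22 h and DOX 1 h did not overlap, and those of DOX 22 h and DMSO 22 h did.

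The shortened 3p forms of mir-133a lay on the same side at 22 h. Their sequences of 14 to 16 bases are also listed under hsa-mir-133b and counted in its sum above, so this is not a separate observation. Under the mir-133a precursors their 8 entries had 134 reads in DMSO 22 h, 220 in DOX 22 h and 281 in DOX 1 h. The log2 ratio was 0.54 (0.23 to 0.87) over DMSO 22 h and 0.01 (-0.25 to 0.27) over DOX 1 h. Over DMSO 22 h it was above 0 in 8 of 8 entries. Each sequence was listed under both mir-133a precursors, so these are not 8 separate observations. Summed over the 3 precursors, the form of 14 bases with the later start had 42, 105 and 99 reads, a log2 ratio of 1.14 (0.62 to 1.71) over DMSO 22 h and 0.45 (0.04 to 0.86) over DOX 1 h. The form of 16 bases with the earlier start had 30, 64 and 89 reads, with ratios of 0.91 (0.28 to 1.60) and -0.11 (-0.60 to 0.37). In reads, DOX 22 h was highest for the form of 14 bases and DOX 1 h for the form of 16, and DMSO 22 h was lowest for both.

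The 5p strand of mir-133a, usually the passenger strand, differed little in total. Its 15 entries had 5131 reads in DMSO 22 h, 5232 in DOX 22 h and 6866 in DOX 1 h. The log2 ratio was -0.14 (-0.20 to -0.09) over DMSO 22 h and -0.03 (-0.08 to 0.02) over DOX 1 h. The leading entry of 20 bases, summed over both precursors, had 3951, 3776 and 5073 reads, with ratios of -0.23 (-0.30 to -0.17) and -0.06 (-0.12 to -0.00235). No spread between replicates is at hand to set these differences against.

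The lengths of the 5p strand differed more than its total. Forms of 18 bases had 170 reads in DMSO 22 h, 292 in DOX 22 h and 280 in DOX 1 h, or 3.31% (2.84% to 3.84%), 5.58% (4.97% to 6.24%) and 4.08% (3.62% to 4.57%) of the arm. Forms of 19 bases made up 6.12% (5.48% to 6.81%), 8.08% (7.36% to 8.86%) and 6.06% (5.51% to 6.65%). For both lengths DOX 22 h was highest and its interval overlapped neither of the others. Forms of 17 bases went the other way at 22 h, with 258 reads in DMSO 22 h and 207 in DOX 22 h, a log2 ratio of -0.49 (-0.76 to -0.22). The form of 20 bases that starts 1 base later had 102, 122 and 236 reads, with ratios of 0.09 (-0.30 to 0.48) over DMSO 22 h and -0.59 (-0.92 to -0.27) over DOX 1 h, so that it was highest in DOX 1 h. That start held 2.74% to 3.09% of the 5p arm of hsa-mir-133a-1 in the comparisons that include 1 h and 2.14% at 22 h.

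**Figure D3:**
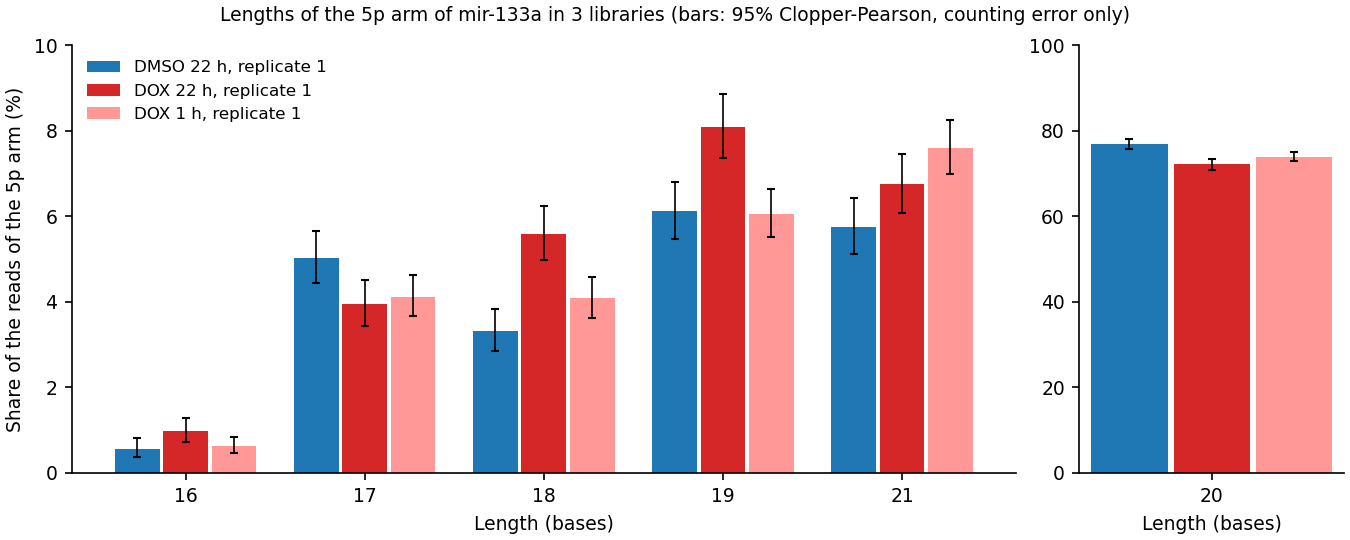
Share of the reads of the 5p arm (vertical axis, percent) by length of the forms with the leading start (horizontal axis, bases), with 20 bases on a scale of its own, for replicate 1 of DMSO 22 h, DOX 22 h and DOX 1 h. Error bars are 95% Clopper-Pearson intervals for counting error, and forms of 18 and 19 bases stand highest in DOX 22 h.

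Over single entries, 6 of the 42 with recovered reads (14.3%) were at least 2-fold higher in DOX 22 h than in DMSO 22 h, where 6.09% of all 1216 entries were. None of the 42 was at least 2-fold lower, where 4.85% of all entries were. The 6 were the second entry of hsa-mir-133b, the form of 16 bases under hsa-mir-133a-1 (8 reads in DMSO 22 h and 22 in DOX 22 h) and under hsa-mir-133b (6 and 23), the form of 14 bases under hsa-mir-133a-2 (15 and 40) and under hsa-mir-133b (13 and 35), and the study's listed sequence under hsa-mir-133a-1. They amount to 4 different sequences. Added up over precursors, 26 family sequences had recovered reads, and 2 of them were past 2-fold, both higher: the second entry of hsa-mir-133b and the form of 14 bases. The same sums were not made for all entries, so this count has no share beside it. The 14.3% above counts some sequences more than once. The median log2 ratio was 0.28 over the 42 entries and 0.00258 over all 1216.

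For DOX 22 h over DOX 1 h, 5 of 73 family entries (6.85%) were at least 2-fold higher, where 11.6% of all 1788 entries were, and 15 (20.5%) at least 2-fold lower, where 12.9% were. All 15 were entries not listed at 22 h, with at most 12 reads in both libraries together, and 8 such entries had 0 reads in DOX 22 h. Among the 42 with at least 20 reads, 2 were at least 2-fold higher (5.21% of all 1190 such entries) and 0 lower (1.68%). These were the second entry of hsa-mir-133b and the 5p form of 16 bases under hsa-mir-133a-2, with 18 reads in DOX 1 h and 29 in DOX 22 h and a log2 ratio of 1.04 (0.15 to 1.99). The median log2 ratio was -0.12 over the 73 family entries and 0.01 over all. Of the 73, 31 were not listed at 22 h. The 22 h means include the DOX 22 h library, so listing depends in part on the DOX 22 h reads. No direction is read from the median over the 73.

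**Figure D4:**
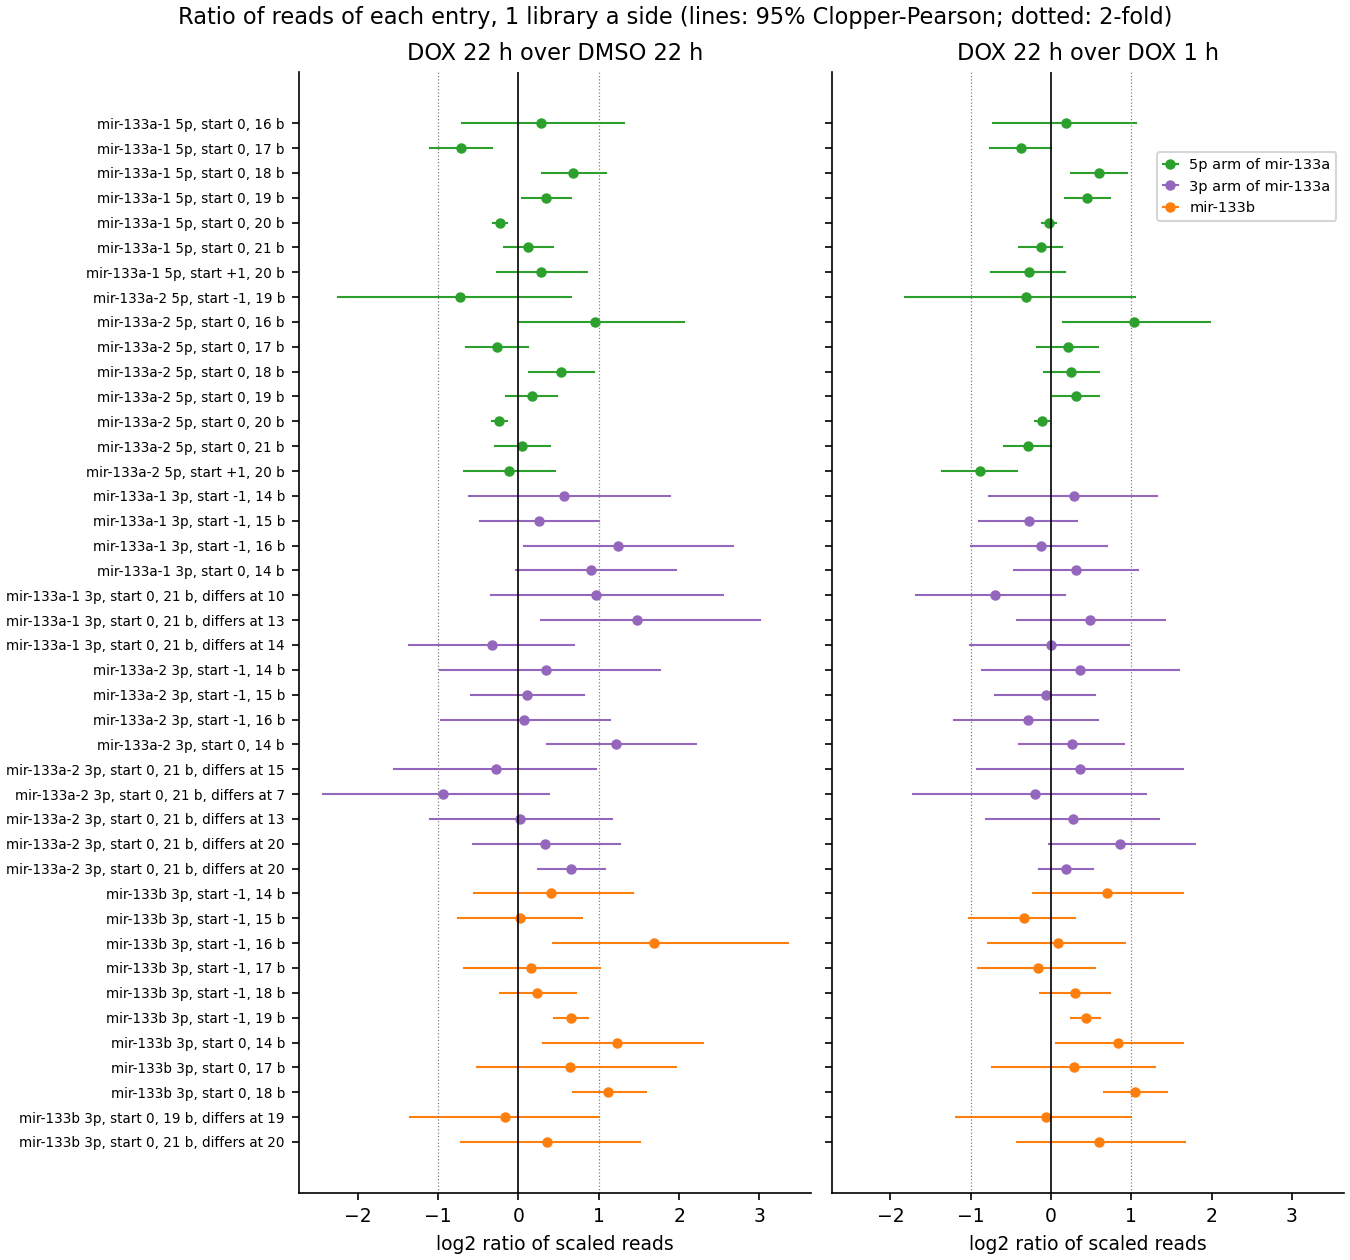
Log2 ratio of scaled reads (horizontal axis) for the 42 family entries with recovered reads (vertical axis: precursor, arm, start against the leading mir-133a entry, length), with 95% Clopper-Pearson intervals as lines. In the panel for DOX 22 h over DMSO 22 h, 6 points lie beyond the upper 2-fold line and 0 beyond the lower.

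By length, the shorter family entries had the higher median at 22 h. The 27 family entries of at most 19 bases had a median log2 ratio of 0.35 for DOX 22 h over DMSO 22 h, and the 15 of 20 or 21 bases had 0.05. Over other precursors the medians were -0.04 for 572 entries of at most 19 bases and 0.03 for 599 of 20 or 21 bases. For DOX 22 h over DOX 1 h the family medians were 0.26 and -0.02, and those of the others 0.10 and 0.00237. Family entries share sequences, so these medians rest on fewer molecules than entries.

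Forms of the 3p arm with 1 changed base were rare, and their signal was highest at the last position of the leading entry. Under the mir-133a precursors there were 17 such entries at 1 h, 8 at 22 h and 45 in the DOX comparison, with 0.123%, 0.0731% and 0.144% of the arm. All had 21 bases, the leading start and an added T at the end. The sequence from which they differ by that base alone, the leading entry followed by T, was not among the entries analysed here. Positions are counted from 1 at the first base of the leading entry. Changes at position 20 held 41.1% of this signal at 1 h, 61.3% at 22 h and 30.6% in the DOX comparison, and T20A alone, under hsa-mir-133a-2, had means of 141, 108 and 149. At 1 h it was also listed under hsa-mir-133a-1, but without a usable mean. Changes at position 18 held 25.7% at 1 h and 17.7% in the DOX comparison. Among C-to-T changes inside the sequence, C10T, C13T and C14T had summed means of 37.99, 38.9 and 33.4 in the DOX comparison.

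**Figure D5:**
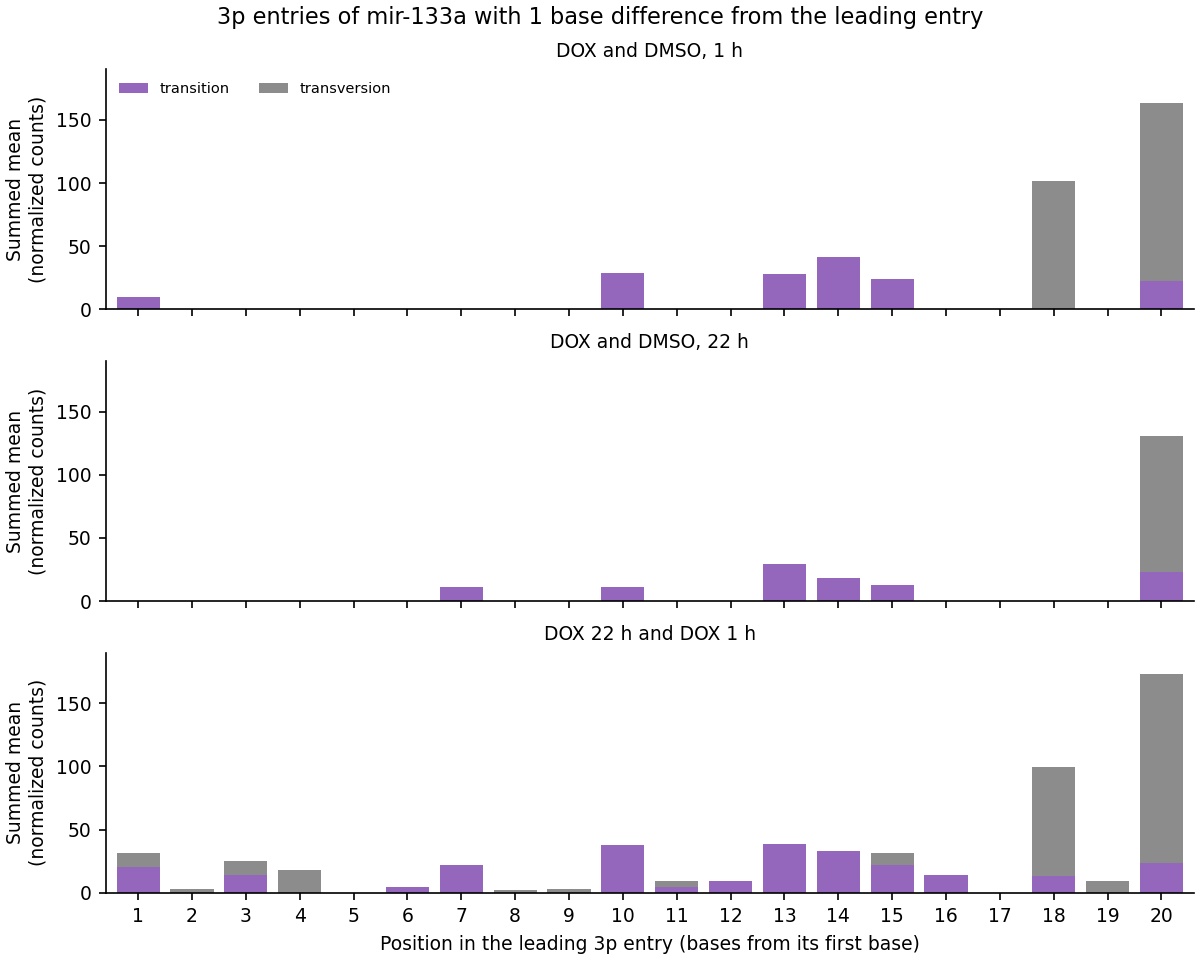
Summed mean normalized counts (vertical axis) of mir-133a 3p entries with 1 base difference, by position in the leading entry (horizontal axis, bases from 1), split into transitions and transversions, 1 panel per comparison. Position 20 stands highest in each panel, with 163 at 1 h, 131 at 22 h and 173 in the DOX comparison.

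The sequence that the study lists for miR-133a-1-3p at 22 h carries C13T. It was listed under both mir-133a precursors, with means of 14.6 and 14.97 at 22 h beside 98838 and 98978 for the leading entries. Under hsa-mir-133a-1 it had 7 reads in DMSO 22 h, 23 in DOX 22 h and 21 in DOX 1 h. Under hsa-mir-133a-2 it had 14, 16 and 17. The DMSO 22 h value under hsa-mir-133a-1 was the lowest of the 6, and there the log2 ratio of DOX 22 h over DMSO 22 h was 1.48 (0.28 to 3.01), against 0.02 (-1.11 to 1.17) under hsa-mir-133a-2. Summed over both, 21, 39 and 38 reads gave a log2 ratio of 0.71 (-0.08 to 1.56), whose interval holds 0. The study lists the C13T sequence as downregulated at the later time. The ratio under hsa-mir-133a-1 went the opposite way, from 7 and 23 reads with 1 library a side. The reason for this difference was not tested. By stem-loop RT-qPCR the study also reports lower miR-133a-3p at both times. The leading 3p forms have no recovered ratio, so that result cannot be set against the reads given here. The direction of the recovered ratios rests on the library assignment given above. The T20A form, listed under hsa-mir-133a-2, had 79, 140 and 158 reads, with log2 ratios of 0.65 (0.25 to 1.07) over DMSO 22 h and 0.19 (-0.15 to 0.53) over DOX 1 h.

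Other muscle miRNAs were read the same way from a list of 8 precursors. Of their 63 entries at 22 h, 53 had recovered reads, and 1 was at least 2-fold higher and 2 were at least 2-fold lower in DOX 22 h than in DMSO 22 h. Of all 1216 entries, 6.09% were higher and 4.85% lower. Over DOX 1 h, 3 of the 53 were higher and 1 lower, where 11.6% and 12.9% of all 1788 entries were. Among the 1190 entries with at least 20 reads together, 5.21% were higher and 1.68% lower. hsa-mir-206, which shares its transcript with mir-133b, had 381 reads in DMSO 22 h, 256 in DOX 22 h and 354 in DOX 1 h, a log2 ratio of -0.74 (-0.98 to -0.51) over DMSO 22 h. hsa-mir-208b, encoded within a myosin heavy chain gene, had 7309, 5919 and 8531 reads and a ratio of -0.47 (-0.52 to -0.42) over DMSO 22 h and -0.16 (-0.21 to -0.12) over DOX 1 h. Of the other myosin-encoded members, hsa-mir-208a had 2708, 3082 and 3283 reads. For hsa-mir-499a only 5 of 7 entries had recovered reads, with 2606, 2818 and 2608. Its summed mean at 22 h was 372077, so most of its signal has no ratio here. The ratios of hsa-mir-208a and of the recovered hsa-mir-499a entries were 0.02 (-0.06 to 0.09) and -0.06 (-0.13 to 0.02) over DMSO 22 h. Over DOX 1 h they were 0.27 (0.20 to 0.34) and 0.47 (0.40 to 0.55). For hsa-mir-486-1 and hsa-mir-486-2 the ratios were -0.44 (-0.58 to -0.30) and -0.37 (-0.51 to -0.24) over DMSO 22 h, and -0.61 (-0.74 to -0.48) and -0.48 (-0.60 to -0.36) over DOX 1 h. For hsa-mir-1-1 and hsa-mir-1-2, which share transcripts with mir-133a precursors, only 4 of 7 and 4 of 9 entries had recovered reads. These held 1260 and 1369 reads in DMSO 22 h, beside summed means of 474598 and 525877 at 22 h. Most of the mir-1 signal therefore has no ratio. The recovered entries gave 0.20 (0.10 to 0.31) and 0.00609 (-0.10 to 0.11) over DMSO 22 h. Over DOX 1 h they gave 0.20 (0.10 to 0.29) and 0.19 (0.09 to 0.29).

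The precursor arms whose ratios lay nearest to the 16 recovered 3p entries of mir-133a were sought among 221 arms with at least 100 reads. These 16 entries had 306 reads in DMSO 22 h, 479 in DOX 22 h and 576 in DOX 1 h, with log2 ratios of 0.48 (0.27 to 0.69) and 0.10 (-0.08 to 0.27). Likeness was the distance in both ratios, that is, over 3 libraries. Nearest were hsa-mir-103a-2 (0.44 and 0.13, start at base 49), hsa-mir-708 (0.46 and 0.04, start at base 12) and hsa-mir-107 (0.55 and 0.13, start at base 51).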

How the data were processed

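TruSeq small RNA libraries of 12 samples in 4 groups of 3 were sequenced on a HiSeq 2500, and groups were taken from the labels. The authors aligned reads to human sequences (hg19 per the labels) in the BaseSpace Small RNA app and compared groups with DESeq2, whose version is not given in the sources used here. The mean of each deposited table is a signal, reads divided by size factors and averaged over both groups by the authors. Its decimal mark was lost at 1 h and 22 h. It was set back to the place that brought the value nearest to the mean of that entry in the table of both DOX times, and 6 family entries at 1 h had no such partner. Other columns of the deposited tables hold the authors' fold changes, standard errors, p-values and values of each side, with the sides not named in the header. As the authors' own comparisons, they were not used. Columns of no mapped sample numbered 0.

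Entries of a precursor whose starts lay over 15 bases apart were taken as different arms, and the single arm of mir-133b was called 3p because it shares sequences with the 3p arm of mir-133a. Reads were recovered as whole-number solutions of both means, with terms up to 1000 and a tolerance of 0.01, and used where 1 solution was possible. This was tested on simulated data. The terms were 731 for DOX 22 h and 822 for DMSO 22 h, and 9 and 7 for DOX 22 h and DOX 1 h in the table of both DOX times. With 1 library a side no test was made. Called entries were at least 2-fold apart. Read intervals are exact binomial and, since reads carry no molecular identifiers, cover counting error only.

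Named were, by rule, the precursors and arms, the leading entries per table and start with at least 1% of an arm, the study's listed sequence, entries past 2-fold with at least 20 reads together, and the 3 nearest arms. Sums over precursors and medians by length were added after the values were seen. Members, lists and rules were chosen with earlier results of these data known. Alternatives were the denominator, 1 mean per sequence, a mean of at least 10, an arm gap of 10 bases, no base differences, a pseudocount of 1, other scalings, 1.5-fold and read minimums. Python 3.11.15 with numpy 2.4.6, pandas 2.3.3, scipy 1.17.1 and matplotlib was used.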

Additional observations from a re-analysis of the deposited data

How the results depend on the processing

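No paired analysis was possible because the tables give no values per library for all groups, and the comparisons with DOX 22 h hold 1 library a side. Models on counts, leaving out replicates and a replicate block were not run for the same reason. Of 98 alternative values, 80 stayed within the binomial interval of the reported value or within 1.5 times of a reported count. Keeping only the larger mean of a sequence listed under several precursors, which leaves out its reads under the others, lowered the family share to 3.56% (1 h), 3.96% (22 h) and 4.28% (DOX comparison). With only precursor-named entries in the denominator the last was 6.72%. Among sequences listed under 1 precursor alone, hsa-mir-133b made up 79.1%, 76.7% and 79.2%. Without entries that differ by a base, the later start of hsa-mir-133b held 18.5%, 19.6% and 21.1%, and 19 bases 55.0% in the DOX comparison. Scaling by recovered reads changed the 5p log2 ratio to -0.0803 over DMSO 22 h and turned its direction to 0.00230 over DOX 1 h. At 1.5-fold, 13 of 42 entries were higher and 3 lower over DMSO 22 h, where 16.7% and 13.6% of all entries were, and 13 of 73 were higher and 21 lower over DOX 1 h, where 19.6% and 18.5% of all were. With at least 20 reads together, 2 were higher and 0 lower over DOX 1 h. The leading 3p entries are limited by the recovery, not by depth, and have no ratio.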

Other observations

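No listed sequence was longer than 21 bases or shorter than 12 in any of the 3 comparisons. The leading entry of a precursor arm began with T in 23.1% of 346 arms at 1 h, 23.8% of 319 at 22 h and 24.1% of 427 in the DOX comparison. It began with A in 32.4%, 32.0% and 31.9%.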
